A study of Homo sapiens with 6 samples.

Results

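The non-steroid nuclear receptors are the members of the nuclear receptor family that do not bind a steroid hormone, among them the receptors for thyroid hormone, retinoic acid, fatty acids and oxysterols and a number of orphan receptors. A list of 36 such genes was fixed by name, and 31 of them were represented by at least 1 probe set annotated to that gene alone, out of 19775 genes represented in this way. Each gene was read from its brightest such probe set, the one with the highest mean signal over the 6 arrays. NR1H2, NR1H4, NR1I2, HNF4A and NR0B1 were not analysed here.

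RNA came from IKPRAB36, a line of Ishikawa cells (from an endometrial cancer) stably transfected with progesterone receptors A and B. Every array shared the transfected line, selection with hygromycin and neomycin, and medium with charcoal stripped serum. The MPA group (MPA 1 to 3) was cultured for 48 h with 1 nM medroxyprogesterone acetate, a synthetic progestin, and the control group (control 1 to 3) was cultured for 48 h without it. RNA of each sample was hybridized to an Affymetrix U133 Plus array, and the question was which genes differ between cells with and without the progestin. Nothing in the sources states that the 3 samples of a group were separate cultures, so that p-values measure only the spread between these samples, which may be technical.

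Nuclear receptors are transcription factors that bind DNA through a pair of zinc fingers and, in most members, bind a small lipophilic ligand in a separate pocket. Receptors for thyroid hormone, retinoic acid, oxysterols and fatty acids bind DNA together with a retinoid X receptor, recruit corepressors without ligand and coactivators with it, and thereby switch their target genes. Orphan receptors have no established ligand. Stripping serum with charcoal lowers its content of steroids and other lipophilic hormones, and the culture descriptions name no added ligand for any of these receptors.

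The signals are on the log2 scale, so that a difference of 1 is a doubling, and array medians ran from 5.16 to 5.28. Detection calls were not used, and signals of different probe sets cannot be ranked against each other. Array MPA 3 had the lowest mean signal over the 27 poly-A control probe sets, 6.19 against 7.50 to 8.23 on the other arrays, and was left out in turn like every other array. Of 7 epithelial markers, 6 lay above the median of every array, as did 3 of 5 Müllerian markers, PAX8, EMX2 and MSX1. SOX17 lay above the median of no array, and WT1 lay above it on 5 arrays, with means of 5.40 on the MPA arrays and 6.26 on the control arrays (log2 fold change -0.86, adjusted p = 0.0941 from limma). The MPA arrays lay below the control arrays without overlap for 3 of these 5 markers, PAX8, WT1 and MSX1. Of 4 leukocyte and 4 endothelial markers, 1 each lay above the median of every array (CD3E and PECAM1), as did 2 of 5 hepatocyte markers (APOA1 and TTR) and 3 of 6 fibroblast markers, COL1A1, COL3A1 and DCN. The epithelial markers EPCAM and CDH1 and the fibroblast markers COL1A1 and COL3A1 were also lower on the MPA arrays without overlap. KRT8 (epithelial) and KDR (endothelial) were higher without overlap. Over all genes, 7.98% lay lower and 8.96% higher without overlap. No marker of any of these cell types was called.

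Of the 31 receptor genes, 1 rose with MPA, none fell and 30 were not called. The one that rose was THRB, thyroid hormone receptor beta, by 0.89 on the log2 scale (1.85-fold) at its brightest probe set. Another THRB probe set had a log2 fold change of 0.03. A gene was called at an adjusted p under 0.05 (limma, Benjamini-Hochberg over 54613 probe sets) and the minimum fold change named in the methods of the study, which 2.9% of all genes passed, 1.74% higher and 1.16% lower. The count of 1 in 31 was therefore near the background of the whole array. The median log2 fold change was 0.00 over the 31 genes and 0.02 over all genes, and the median size of the change, without its sign, was 0.12 and 0.11. An unadjusted p under 0.05 was found for 4 of the 31 genes (THRB, RARA, RORA and NR2C2), against 11.8% of all genes.

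For 30 of the 31 genes the 95% interval of the log2 fold change lay within 2-fold in either direction, and for 25 within 1.5-fold. The exception to the first count was THRB, with an upper bound of 1.12. Over all 19775 genes, 18978 lay within 2-fold and 15544 within 1.5-fold, a similar share. RMA compresses changes of dim probe sets, so the intervals of the 13 genes above the median of no array bound the signal only. The lowest bound over all members was -0.85, for RARA. The groups did not overlap for 6 of the 31 genes, THRA, THRB, RORA and NR4A3 higher and RARA and NR2C2 lower, where 16.9% of all genes showed no overlap, 8.96% higher and 7.98% lower.

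**Figure D1:**
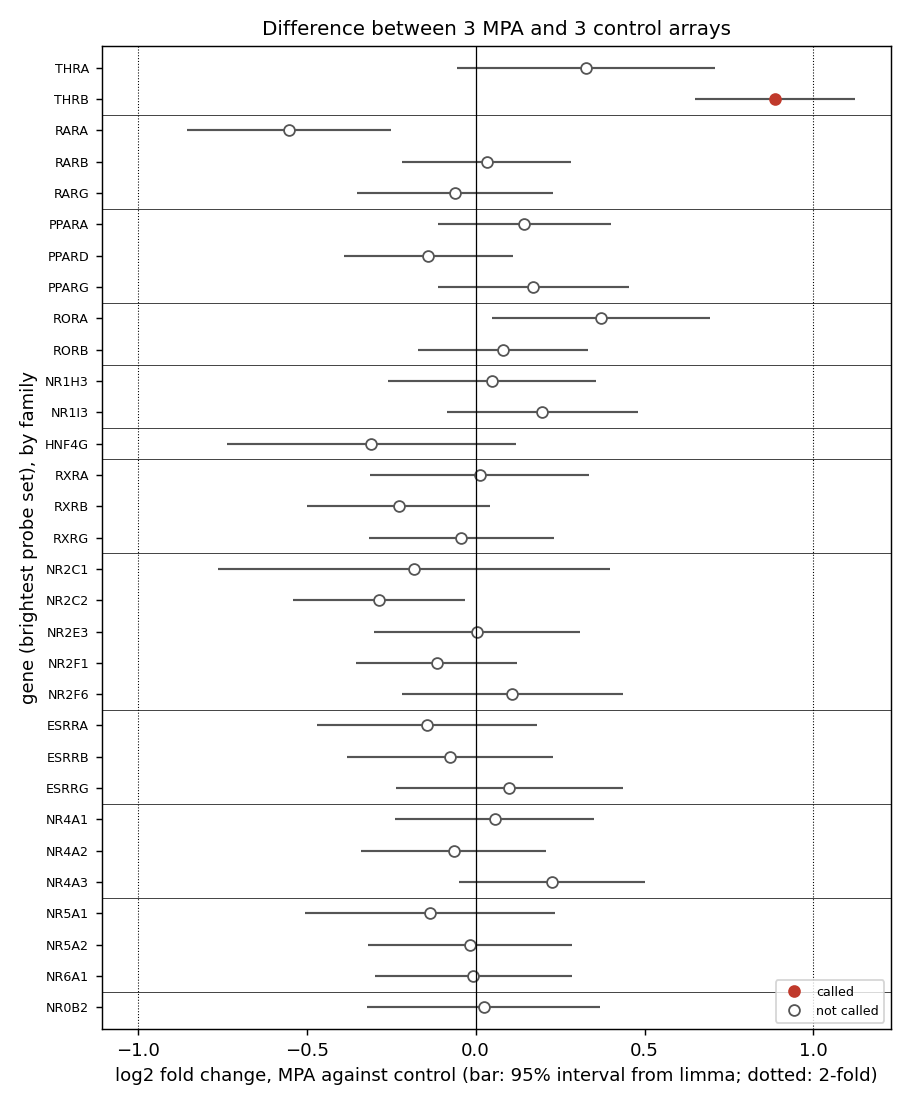
Difference in log2 signal, MPA minus control (x axis), for the 31 non-steroid nuclear receptor genes (y axis, grouped by family), with bars for the 95% interval from limma, 3 arrays per group. Only THRB, at 0.89, is filled as called, and RARA lies lowest at -0.55.

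Of the 31 genes, 17 had signals above the median of every array, 13 lay above the median of no array, and THRB lay above it on the 3 MPA arrays only; over all genes 62.2% lay above the median of every array. Among the 17 were 2 of 3 retinoid X receptors, the partner receptors RXRA and RXRB. Also among them were 2 of 3 retinoic acid receptors, all 3 PPARs, THRA, NR1H3, NR2C1, NR2C2, NR2F6, ESRRA, NR4A1, NR4A3, NR6A1 and NR0B2. The 13 were RARB, RORA, RORB, NR1I3, HNF4G, RXRG, NR2E3, NR2F1, ESRRB, ESRRG, NR4A2, NR5A1 and NR5A2. None of the 13 was called, and their log2 fold changes ran from -0.31 for HNF4G to 0.37 for RORA.

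**Figure D2:**
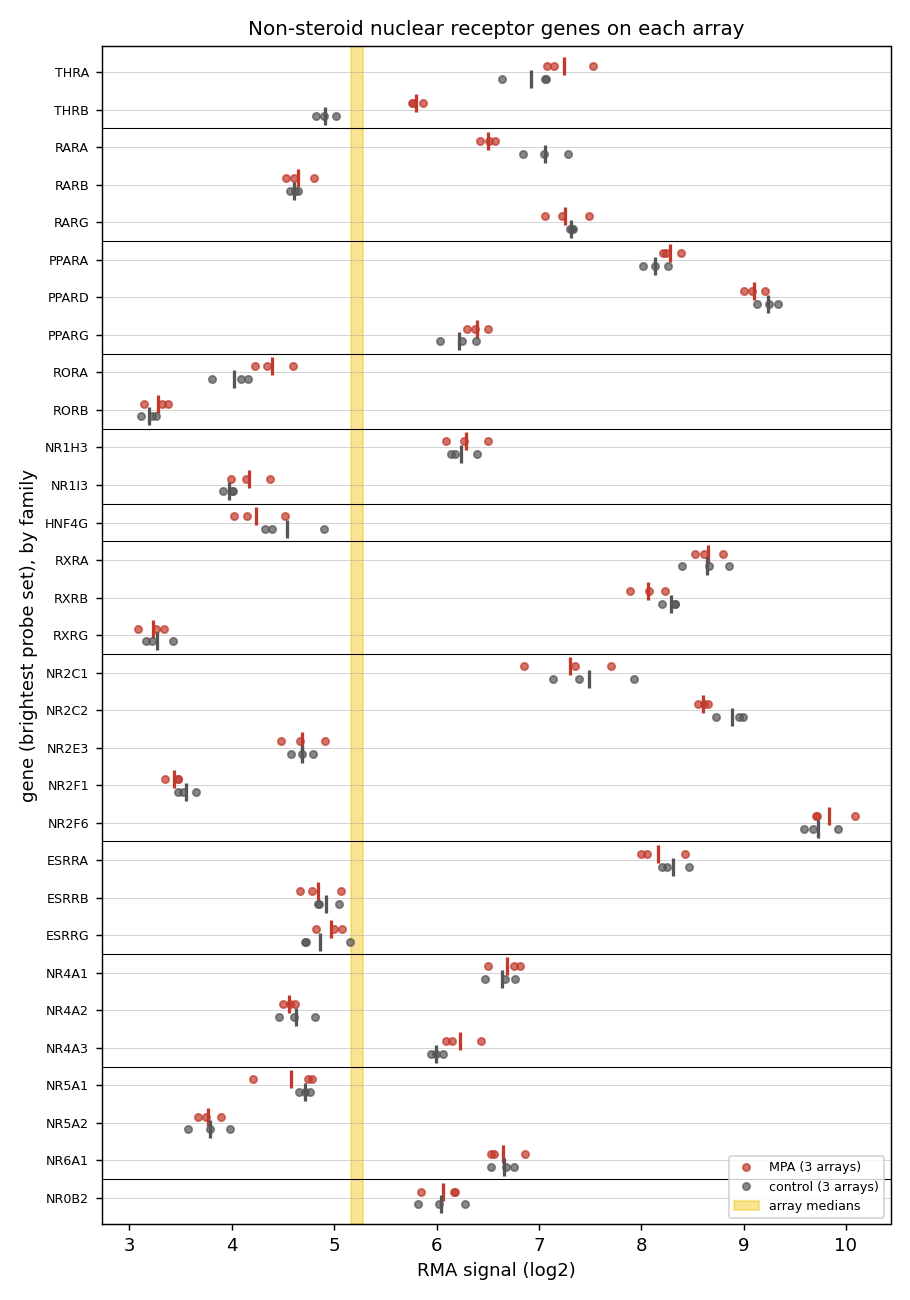
RMA signal on the log2 scale (x axis) of the brightest probe set of each of the 31 genes (y axis, by family), on each MPA array (red, above) and each control array (grey, below), with a vertical mark at each group mean and a yellow band for the array medians of 5.16 to 5.28. The red THRB points lie right of the band and the grey ones left of it.

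Thyroid hormone receptors bind triiodothyronine and are encoded by 2 genes, of which THRB is the form known for feedback control of the pituitary and for the response of the liver. The THRB signal was 5.87, 5.77 and 5.76 on the MPA arrays, against 4.82, 5.02 and 4.90 on the control arrays. Every MPA array lay above every control array, and the gap between the groups was several times the spread within either. The group means were 5.80 ± 0.06 with MPA and 4.91 ± 0.10 without (SD, n = 3 arrays each; log2 fold change 0.89, standard error 0.10, adjusted p = 0.00323 from limma). The call held in all 6 fits that each lacked 1 array, with a log2 fold change of 0.84 to 0.94 and an adjusted p of 0.00663 to 0.0307. Without MPA 3 the log2 fold change was 0.91 (adjusted p = 0.00765).

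THRB had 3 probe sets, and they did not behave alike. A second probe set read 5.98, 5.92 and 5.63 on the MPA arrays, against 4.78, 4.87 and 4.71 on the control arrays, a log2 fold change of 1.06 (adjusted p = 0.00331 from limma). The third read 4.91, 4.81 and 5.10 with MPA and 4.86, 4.85 and 5.01 without. Here the groups overlapped, all signals lay under the array medians, and the log2 fold change was 0.03 with a 95% interval of -0.23 to 0.30. The brightest probe set exceeded the third in its log2 fold change by 0.85 (exact permutation test over the 6 arrays, two-sided, p = 0.1, the smallest that 3 against 3 arrays allow). The third probe set was annotated with a RefSeq transcript record of THRB, and the other 2 with sequence records outside RefSeq. Where on the THRB transcripts each probe set lies was not analysed here. Over all 97 probe sets of the 31 genes, these 2 THRB probe sets were the only ones called, both higher, where 2.03% of all probe sets were called, 1.21% higher and 0.813% lower. An unadjusted p under 0.05 was found for 14 of the 97, against 10.3% of all probe sets. The groups did not overlap for 13 of them higher and 5 lower, against 7.94% and 7.43% of all, and 37 lay above the median of every array, against 45.8% of all.

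THRA, thyroid hormone receptor alpha, read 7.08, 7.14 and 7.53 on the MPA arrays, against 7.06, 6.64 and 7.07 on the control arrays. The groups were barely apart, with MPA 1 just above control 3, and the log2 fold change was 0.33 (95% interval -0.06 to 0.71, adjusted p = 0.596 from limma). The other 3 THRA probe sets had log2 fold changes of -0.21, 0.42 and 0.16, none of them called, and 3 further probe sets annotated to both THRA and NR1D1 were not used. The difference between the changes of THRB and THRA was 0.56 (exact permutation test, two-sided, p = 0.2), in a design whose smallest possible p is 0.1 and which therefore cannot show at 0.05 whether the genes differ.

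The start regions of THRB are shown because it was the member that rose. RefSeq places 2 of them on chromosome 3, minus strand, of GRCh38.p14, at chr3:24495659-24495958 and chr3:24494801-24495100, each a window of 300 bases around an annotated start. Capitals mark matches to AGGTCA, the half-site of many nuclear receptors, to AGAACA, the half-site of the progesterone and glucocorticoid receptors, or to TATAAA, a core promoter motif, on either strand.
THRB start 1: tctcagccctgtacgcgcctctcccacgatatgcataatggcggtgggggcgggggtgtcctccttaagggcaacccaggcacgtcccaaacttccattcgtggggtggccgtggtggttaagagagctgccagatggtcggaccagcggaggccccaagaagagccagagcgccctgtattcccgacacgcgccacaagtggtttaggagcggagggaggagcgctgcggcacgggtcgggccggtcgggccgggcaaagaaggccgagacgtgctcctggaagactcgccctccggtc
THRB start 2: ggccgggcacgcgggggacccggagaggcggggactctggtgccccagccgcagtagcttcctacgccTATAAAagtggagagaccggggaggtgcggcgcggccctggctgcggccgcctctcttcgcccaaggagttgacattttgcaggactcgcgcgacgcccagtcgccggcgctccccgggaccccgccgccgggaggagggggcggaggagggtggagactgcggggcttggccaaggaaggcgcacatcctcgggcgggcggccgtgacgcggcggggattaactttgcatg
The first region is all in lower case, since none of the 3 motifs occurs in it, and the second holds TATAAA alone. Of all 35116 start regions in the RefSeq table, 13.8% held AGGTCA, 14.8% AGAACA and 11.5% TATAAA. Start regions were listed for 27 of the 31 genes, 57 regions in all, of which 10 held AGGTCA, 10 AGAACA and 6 TATAAA, and some of these regions overlap.

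Retinoic acid receptors bind all-trans retinoic acid as partners of retinoid X receptors, and RARA is the form with the broadest expression. The RARA signal was 6.43, 6.51 and 6.58 on the MPA arrays, against 7.29, 6.84 and 7.05 on the control arrays. All MPA arrays lay below all control arrays, and the control arrays varied more. The group means were 6.51 ± 0.07 with MPA and 7.06 ± 0.22 without (SD, n = 3 arrays each), a log2 fold change of -0.55 (95% interval -0.85 to -0.25, adjusted p = 0.0992 from limma), and RARA was not called. SAM, the test named in the methods of the study, called it lower, as did limma with the replicate number as a block (adjusted p = 0.0451) and without control 2 (adjusted p = 0.0457). SAM and the block also called more of all genes, 5.23% and 4.74%.

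RARA had 5 probe sets, with log2 fold changes on both sides of 0. The brightest was the lowest at -0.55, the second was at 0.02 (95% interval -0.37 to 0.41), and the remaining 3 were at -0.26, -0.17 and 0.32. The second read 6.73, 6.40 and 7.03 on the MPA arrays, against 6.85, 6.50 and 6.73 on the control arrays, so that its groups overlapped. The brightest differed from the second by -0.58 (exact permutation test, two-sided, p = 0.1, the smallest possible). With all RARA probe sets averaged, the log2 fold change was -0.13 (adjusted p = 0.847 from limma).

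One of 3 RefSeq start regions of RARA held an AGGTCA half-site, shown here in capitals, at chr17:40308930-40309229 (GRCh38.p14, plus strand). The other 2 held none of the 3 motifs.
RARA start 1: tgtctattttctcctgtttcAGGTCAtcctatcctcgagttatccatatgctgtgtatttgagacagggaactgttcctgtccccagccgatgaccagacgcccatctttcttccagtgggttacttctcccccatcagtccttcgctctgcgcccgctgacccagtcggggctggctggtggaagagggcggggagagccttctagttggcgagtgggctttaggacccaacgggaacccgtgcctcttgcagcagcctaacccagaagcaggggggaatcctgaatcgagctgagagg
This match describes the letters of the window only.

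RARG, the retinoic acid receptor best known from skin, read 7.23, 7.06 and 7.49 with MPA and 7.33, 7.30 and 7.33 without, a log2 fold change of -0.06 (95% interval -0.35 to 0.23). RARB, itself a classical target gene of retinoic acid, lay under the median of every array, with means of 4.64 ± 0.14 on the MPA arrays and 4.61 ± 0.04 on the control arrays (SD, n = 3 each). The change of RARA differed from those of RARG and RARB by -0.49 and -0.59 (exact permutation tests, two-sided, p = 0.1 each). In all, 7 pairs of genes or probe sets were compared in this way, chosen after their values were seen, and with adjustment over the 7 the p-values were 0.175 to 0.7.

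Retinoid X receptors are the shared partners of the thyroid hormone, retinoic acid, PPAR and liver X receptors. RXRA read 8.62, 8.53 and 8.80 on the MPA arrays, against 8.85, 8.40 and 8.66 on the control arrays. Its groups overlapped fully, and the 95% interval of its log2 fold change was -0.31 to 0.33. RXRB read 8.07, 7.89 and 8.23 with MPA and 8.33, 8.21 and 8.33 without, with MPA 3 inside the range of the control arrays (log2 fold change -0.23, adjusted p = 0.607 from limma). RXRG lay between 3.08 and 3.34 with MPA and between 3.16 and 3.42 without, under the median of every array.

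The PPARs bind fatty acids and their derivatives and control lipid use. PPARA, the form that drives fatty acid oxidation, read 8.39, 8.21 and 8.24 with MPA and 8.02, 8.26 and 8.14 without (log2 fold change 0.14). PPARD, a widely expressed form, read 9.09, 9.00 and 9.21 with MPA and 9.25, 9.13 and 9.33 without (-0.14). PPARG, the regulator of fat cell formation, read 6.38, 6.29 and 6.50 with MPA and 6.38, 6.03 and 6.25 without (0.17). By their brightest probe sets, all 3 PPARs were above the median of every array, their groups overlapped, and their intervals together spanned -0.39 to 0.45. Of the other 8 PPARA probe sets, 1 had an unadjusted p under 0.05, with a log2 fold change of 0.30 and no overlap (adjusted p = 0.444 from limma). Those at 0.15 and 0.16 were also higher without overlap, and none was lower without overlap. Over all probe sets, 7.94% were higher without overlap.

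The RORs act on the promoters of clock and metabolic genes. RORA read 4.23, 4.34 and 4.60 on the MPA arrays, against 4.09, 4.16 and 3.81 on the control arrays, all under the array medians. The groups did not overlap and the log2 fold change was 0.37 (95% interval 0.05 to 0.69, adjusted p = 0.382 from limma). Of its 8 probe sets, 3 dimmer ones had larger changes, 0.50, 0.62 and 0.54. The one at 0.50 had overlapping groups, and its suffix (x_at) marks probes that may bind other transcripts. Only without MPA 3 was it called higher (adjusted p = 0.0326 from limma). The one at 0.54 had no overlap (adjusted p = 0.245 from limma) and was called higher only with the replicate block (adjusted p = 0.0273). The one at 0.62 read 4.16, 4.21 and 3.82 with MPA and 3.34, 3.57 and 3.41 without, with no overlap and an adjusted p of 0.0633 from limma. It was called higher by SAM, with an intensity trend in the variance (adjusted p = 0.0405), with the replicate block (adjusted p = 0.0165) and without MPA 3 (adjusted p = 0.0197). The other 4 RORA probe sets had changes between -0.24 and 0.12. RORB, the form known from retina and brain, had means of 3.28 ± 0.12 with MPA and 3.20 ± 0.08 without (SD, n = 3 arrays each).

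**Figure D3:**
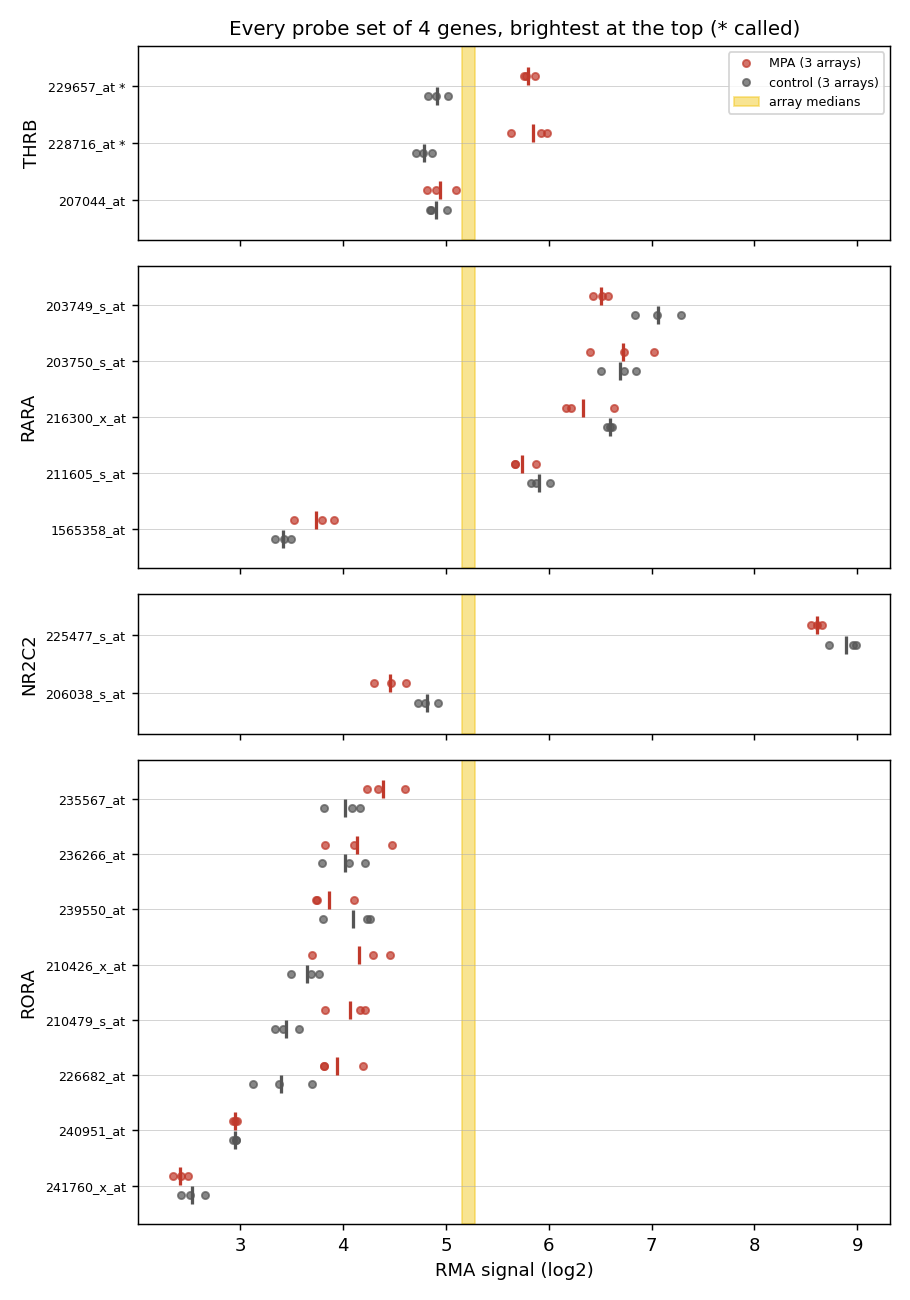
RMA signal on the log2 scale (x axis) of every probe set (y axis, brightest at the top of each panel) annotated to THRB, RARA, NR2C2 or RORA alone, on MPA arrays (red, above) and control arrays (grey, below), with marks at the group means and a yellow band for the array medians. A star marks the 2 THRB probe sets that were called; the third THRB probe set shows overlapping groups at 4.94 and 4.91.

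NR1H3, liver X receptor alpha, a sensor of oxysterols, read 6.27, 6.10 and 6.50 with MPA and 6.39, 6.14 and 6.18 without, and its groups overlapped (log2 fold change 0.05). The xenobiotic receptor NR1I3 (CAR) and HNF4G, both known from liver or gut, lay under the median of every array, with log2 fold changes of 0.20 and -0.31. The interval of HNF4G, from -0.74 to 0.12, was among the wider ones.

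NR2C2 (TR4) and NR2C1 (TR2) are orphan receptors that bind direct repeats of the half-site and can repress or activate. NR2C2 read 8.66, 8.55 and 8.61 on the MPA arrays, against 8.73, 8.99 and 8.96 on the control arrays. Every MPA array lay below every control array, with a log2 fold change of -0.29 (95% interval -0.54 to -0.03, adjusted p = 0.398 from limma), and the gene was not called. Its dimmer probe set also had non-overlapping groups and a log2 fold change of -0.36 (adjusted p = 0.273 from limma). NR2C1 had the widest spread of all members, 7.35, 7.71 and 6.85 with MPA and 7.13, 7.93 and 7.39 without, and its interval of -0.76 to 0.40 left a wide range. The changes of NR2C2 and NR2C1 differed by -0.10 (exact permutation test, two-sided, p = 0.7).

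NR2F6 (EAR2), a COUP-related repressor, read 9.72, 9.71 and 10.09 with MPA and 9.92, 9.59 and 9.68 without, with overlapping groups (log2 fold change 0.11). NR2F1 (COUP-TFI) had means of 3.43 ± 0.07 with MPA and 3.55 ± 0.09 without (SD, n = 3 arrays each), under the median of every array. The photoreceptor factor NR2E3 had means of 4.69 and 4.68 with and without MPA. A dimmer NR2E3 probe set read 3.85, 3.68 and 3.73 with MPA and 4.15, 4.08 and 4.24 without, a log2 fold change of -0.41 (adjusted p = 0.131 from limma), and was called lower by SAM alone.

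The estrogen-related receptors resemble the estrogen receptors in sequence but bind no estrogen, and ESRRA controls genes of mitochondrial energy production. ESRRA read 8.00, 8.06 and 8.43 on the MPA arrays, against 8.25, 8.20 and 8.46 on the control arrays, with overlapping groups and a log2 fold change of -0.14. ESRRB and ESRRG lay under the median of every array, with log2 fold changes of -0.08 and 0.10. The ESRRG probe set also has the suffix x_at.

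The NR4A receptors are early response genes whose products act without a ligand. NR4A1 (NUR77) read 6.76, 6.50 and 6.82 with MPA and 6.77, 6.48 and 6.67 without, by a probe set whose suffix (x_at) marks probes that may bind other transcripts. NR4A3 (NOR1) read 6.15, 6.10 and 6.44 with MPA and 6.06, 5.99 and 5.94 without. Its groups did not overlap, but the difference of 0.23 was not called (95% interval -0.05 to 0.50, adjusted p = 0.619 from limma). NR4A2 (NURR1) lay under the median of every array, with means of 4.56 ± 0.06 with MPA and 4.63 ± 0.18 without (SD, n = 3 arrays each). A dimmer NR4A2 probe set was lower without overlap, at -0.31 (adjusted p = 0.359 from limma). Dimmer NR4A3 probe sets were at 0.33 (adjusted p = 0.445 from limma) and -0.07, both with overlapping groups.

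NR6A1 (GCNF), a repressor known from germ cells, read 6.56, 6.53 and 6.86 with MPA and 6.53, 6.76 and 6.68 without. NR0B2 (SHP), which lacks a DNA-binding domain and represses other nuclear receptors, read 6.18, 5.84 and 6.17 with MPA and 6.28, 5.82 and 6.02 without. The groups of both genes overlapped, with log2 fold changes of -0.01 and 0.02. The steroidogenic factor NR5A1 and its relative NR5A2 lay under the median of every array, with log2 fold changes of -0.14 and -0.02.

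Of 8 other nuclear receptor genes measured, 1 rose and 1 fell. The list of 36 genes left out VDR, NR1D2 and NR2E1, so its counts do not cover every receptor outside the steroid hormone receptors. The vitamin D receptor gene VDR, a partner of retinoid X receptors, averaged 9.48 ± 0.22 with MPA and 6.20 ± 0.09 without (SD, n = 3 arrays each; log2 fold change 3.27, adjusted p = 1.42e-05 from limma). NR3C2, the mineralocorticoid receptor, averaged 6.60 ± 0.09 with MPA and 7.57 ± 0.16 without (log2 fold change -0.97, adjusted p = 0.00418 from limma). PGR, which the cells also carry in the transfected constructs, was 0.48 higher on the log2 scale with MPA, short of a call (adjusted p = 0.294). NR1D2 (REV-ERB beta) was at -0.56 (adjusted p = 0.359 from limma), and NR2E1, NR3C1, ESR1 and ESR2 lay between -0.05 and 0.20.

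None of 13 coregulators of nuclear receptors was called, against 2.9% of all genes, and 2 had an unadjusted p under 0.05, against 11.8%. The groups did not overlap for 1 of them higher and 2 lower, where 16.9% of all genes showed no overlap. NCOA1 (SRC-1), a coactivator, read 8.55, 8.43 and 8.22 on the MPA arrays, against 7.59, 8.09 and 7.78 on the control arrays, with no overlap and a log2 fold change of 0.58 (adjusted p = 0.142 from limma). CREBBP, an acetyltransferase, read 9.17, 8.96 and 9.24 with MPA and 9.77, 9.29 and 9.64 without, with no overlap and a log2 fold change of -0.45 (adjusted p = 0.282 from limma).

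Genes that supply or remove the ligands and genes known as targets of the receptors were described by lists. Over all genes, 2.9% were called and 11.8% had an unadjusted p under 0.05. The lists were chosen with earlier results of these data known, so their counts are description and no test of enrichment. Of 6 genes for the import, activation and removal of thyroid hormone, none was called. Of 11 thyroid hormone target genes, KLF9 and BCL6 rose and none fell, with a median log2 fold change of 0.05 and an unadjusted p under 0.05 for 3, all higher. KLF9, a Krüppel-like factor that glucocorticoids also induce, read 8.15, 8.16 and 7.42 with MPA and 5.59, 5.94 and 5.52 without (log2 fold change 2.23, adjusted p = 0.00115 from limma). BCL6, a transcriptional repressor, read 9.93, 9.63 and 9.93 with MPA and 7.46, 6.90 and 7.42 without (2.57, adjusted p = 0.000189 from limma). The third was TXNIP, an inhibitor of thioredoxin, which read 10.43, 9.98 and 10.66 with MPA and 9.60, 8.86 and 9.86 without, with no overlap and a log2 fold change of 0.92 (adjusted p = 0.197 from limma). The remaining 8 target genes had log2 fold changes of -0.25 to 0.13, HR, THRSP and DIO1 among them.

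Of 12 genes for the making, binding and breakdown of retinoic acid, 1 fell and none rose, and 3 had an unadjusted p under 0.05, all lower. ALDH1A1, which oxidizes retinaldehyde to retinoic acid, read 11.03, 10.79 and 11.07 with MPA and 11.56, 11.79 and 11.91 without (log2 fold change -0.79, adjusted p = 0.0205 from limma). Of 14 retinoic acid target genes none was called, 5 had an unadjusted p under 0.05, all lower, and the median log2 fold change was -0.15. The lists share genes: DHRS3 and CRABP2 are among the 3 and again among the 5, so these counts are not independent. DHRS3, a retinaldehyde reductase and retinoic acid target, read 9.74, 9.61 and 10.02 with MPA and 10.41, 10.09 and 10.33 without, with no overlap (log2 fold change -0.49, adjusted p = 0.201 from limma).

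Of 15 PPAR target genes only PDK4 was called, with a log2 fold change of 5.58. PDK4, which inhibits pyruvate dehydrogenase and is also induced by glucocorticoids, read 9.38, 9.74 and 9.59 with MPA and 4.08, 3.78 and 4.11 without. An unadjusted p under 0.05 was found for 4 of the 15, all higher, namely PDK4 and 3 genes of fatty acid metabolism that were not called. These were the desaturase FADS2 at 0.44 (adjusted p = 0.274 from limma) and HADHA at 0.33 (adjusted p = 0.332), both with no overlap, and ACADVL at 0.35 (adjusted p = 0.451), whose groups overlapped. The other 11 genes lay between -0.27 for UCP2 and 0.31 for SLC25A20, with CPT1A and ANGPTL4 at 0.12 each. Of 10 target genes of estrogen-related receptors PDK4 was again the only one called. None of 11 liver X receptor target genes and none of 9 ROR target genes was called, with median log2 fold changes of 0.02 and 0.03, while 1 liver X receptor target, lower, and 3 ROR targets, higher, had an unadjusted p under 0.05.

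**Figure D4:**
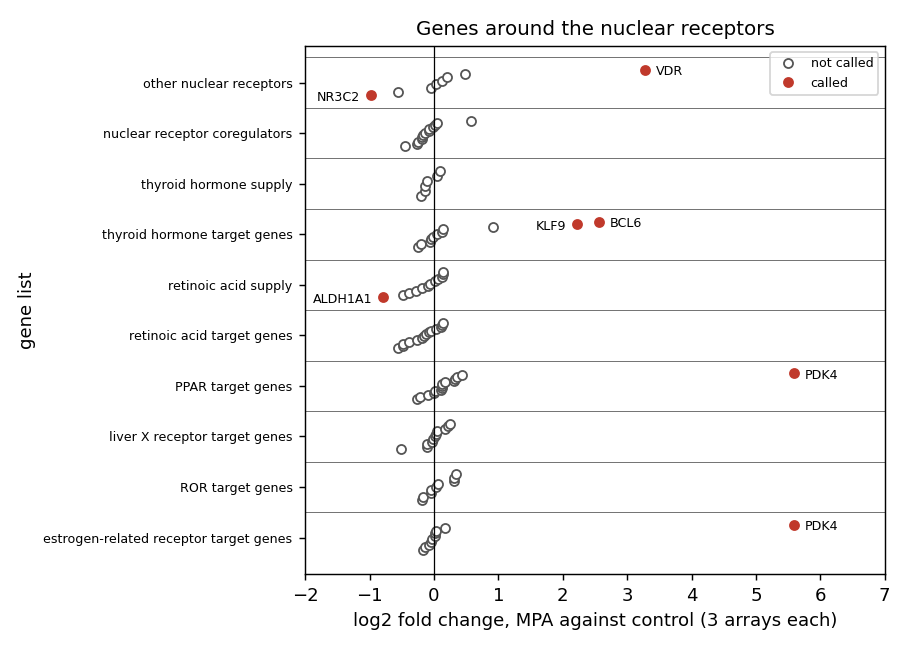
Difference in log2 signal, MPA minus control (x axis, 3 arrays each), for the measured genes of 10 lists around the nuclear receptors (y axis), 1 point per gene. Filled points were called; PDK4, at 5.58, stands in the list of PPAR targets and in that of estrogen-related receptor targets.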

How the data were processed

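Gene expression was measured in 6 samples, 3 with MPA and 3 controls, grouped by their titles. For 54675 probe sets the authors deposited log2 signals from RMA, background corrected, normalized between arrays and summarized over probes, and none of these steps was repeated. RMA draws arrays towards one distribution and compresses changes of dim probe sets. The version of the RMA software is not known here. After 62 control probe sets were left out, 54613 were tested, of which 41091 had 1 gene symbol (41037 updated by identifier to RefSeq, GRCh38.p14), 1801 several and 11721 none.

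Groups were compared with limma 3.58.1 in R 4.3.3 (lmFit and eBayes, two-sided, no covariate), and called at an adjusted p under 0.05 and 1.25-fold. Intervals are 95% intervals from the moderated fit. SAM ran with delta 0.53 and 20 relabelings. The limma step was tested on simulated data. The number of arrays limits the precision.

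The members and gene lists were chosen with earlier results of these data known. All members were accounted for, values on every array were given for members that had a call, an unadjusted p under 0.05 or signals above the median of every array, and up to 4 called genes per direction were named from each list. Other list genes were named after their values were seen. Alternatives were the replicate block, SAM, an intensity trend, no or a 2-fold minimum, dim probe sets left out (27674 kept, those above the median on at least 3 arrays), a repeated quantile normalization, a shift by 9 housekeeping genes, the mean of a gene's probe sets and each array left out.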

Additional observations from a re-analysis of the deposited data

How the results depend on the processing

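THRB was called higher under every alternative but the 2-fold minimum, which leaves 0 members higher by construction, since its fold is 1.85. Leaving out dim probe sets kept THRB through its MPA arrays alone, so that this setting is no support for it. With all THRB probe sets averaged, the log2 fold change was 0.66 (adjusted p = 0.00390 from limma). RARA was lower with the replicate block and with SAM, so that 1 member was lower under each of these, against 0 in the main fit. Across the fits without 1 array, 1 member was higher each time and 0 to 1 were lower, the 1 being RARA without control 2. Of 452 values of members under 15 alternatives, 448 stayed on their side of the threshold and none reversed while called. Part of this count was fixed in advance. The 2-fold minimum could only remove calls, and dropping the minimum left every adjusted p unchanged.

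Over all probe sets, 1107 were called, 2033 with the replicate block, 2181 with SAM, 510 at a 2-fold minimum, and 518 to 1190 without 1 array (529 without MPA 1, 608 without control 1, 518 without control 3). Of the 97 probe sets of members, 2 were called, 5 with the replicate block, 5 with SAM, 1 at a 2-fold minimum and 2 to 4 without 1 array, the 4 being without MPA 3 (2 of THRB and 2 of RORA). The cause was not tested. Whether replicate numbers pair the samples was not settled by 3 arrays per group. The deviations of same-numbered arrays from their group means correlated at -0.02, 0.52 and 0.33. Of the MPA arrays, only MPA 2 correlated best with the control array of its own number.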
